A study of Homo sapiens with 8 samples.

Results

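The 9 genes described here encode enzymes that carry the sterol pathway from farnesyl diphosphate through squalene to cholesterol: FDFT1, SQLE, LSS, CYP51A1, MSMO1, NSDHL, EBP, SC5D and DHCR7. They were taken by gene symbol from the 3 deposited tables, and all 9 were found in each table, out of 19709 genes in any table and 17467 in all 3. RNA was sequenced from SUDHL6, an established human diffuse large B-cell lymphoma line, in 4 groups of 2 libraries. The groups were the DMSO vehicle and MS8815, EPZ-6438 or MS8815N, each compound at 2.5 µM, and all were collected after 18 h. Per the labels, MS8815 is a PROTAC (a molecule that brings its target to a ubiquitin ligase for degradation) against EZH2, which methylates histone H3 as the catalytic subunit of the polycomb complex PRC2. EPZ-6438, or tazemetostat, is its matched inhibitor, directed at the enzymatic SET domain, and MS8815N a non-PROTAC analog used as control. The labels speak of duplicates without naming separate cultures, so p-values here rest on a spread between libraries of a group that may be technical. Limma draws the spread of each gene towards a trend over all genes, and comparisons between compounds share it over all 4 groups. All groups come from this 1 line.

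Cells make cholesterol by joining isoprenoid units from the mevalonate pathway into squalene, closing the chain into the sterol rings of lanosterol, and then trimming and desaturating that ring system. SREBP2, the product of SREBF2, activates transcription of most of these enzymes when sterols in the endoplasmic reticulum run low, and rising sterols hold it back through INSIG proteins. Squalene epoxidase is a control point of the sterol branch, and proliferating lymphoid cells rely on the pathway for membrane cholesterol.

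Depth was estimated from the steps between low values at 30.9 to 31.7 M reads (M, mega) per library for DMSO, 26.0 to 30.5 M for EPZ-6438, 30.3 to 34.0 M for MS8815N and 12.9 to 14.6 M for MS8815. The 2 MS8815 libraries also stood apart in their cell type markers. All 15 B-cell markers listed were found, and their summed level was 91376 to 92201 normalised counts with MS8815 against 185089 to 186297 with DMSO. Over 7 of 8 listed epithelial markers the sum was 14244 to 14548 with MS8815 against 829.7 to 908.7 with DMSO. CDH1 was not in all 3 tables, and its log2 fold change with MS8815 was 0.04 ± 0.92 (limma adjusted p = 0.991). Over 10 of 14 listed markers of fibroblasts and other adherent cells the sum was 77167 to 79583 against 11281 to 11593. COL1A2, COL3A1, CCN1 and CCN2 were not in all 3 tables, and COL1A2 was at 2.10 ± 0.89 with MS8815 (limma adjusted p = 0.141). With EPZ-6438 and MS8815N the B-cell sum stayed at 100.2% and 99.4% of DMSO, and the epithelial sum stood at 127.4% and 140.7%. In bulk RNA, fewer cells of a type and less RNA per cell cannot be told apart. Whether the MS8815 libraries hold RNA of another cell type or line beside that of SUDHL6 was not tested, and such RNA would enter every MS8815 value, B-cell scaling included. How much of the MS8815 values below goes with these marker shifts was not tested, so each is given beside its value after scaling to the B-cell genes.

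Levels are normalised read counts, recovered from the deposited log2 values and brought to a common scale, that of the MS8815N table, and fold changes are on the log2(count + 1) scale. All 9 genes were well expressed, at the 71.8th (MSMO1) to 96.8th (FDFT1) percentile of genes by mean level over all 8 libraries, MS8815 included. Per kb of transcript, which allows a comparison between genes, the mean DMSO level was 4015 normalised counts for FDFT1, 2071 for SQLE and 2046 for EBP. NSDHL followed at 1459, CYP51A1 at 1263, DHCR7 at 1137, SC5D at 1060, LSS at 832.0 and MSMO1 at 744.5. FDFT1, at the entry to the sterol branch, thus had the highest level per kb, and 27.3% to 27.5% of the summed level of the 9 genes in the DMSO libraries.

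The promoters of these genes, where SREBP2 and its partner NF-Y are known to bind, were read from RefSeq (GRCh38.p14), whose table held 7 of the 9 genes. CCAAT, the letters bound by NF-Y, searched on both strands from 250 bases before to 50 after each start, was found for 6 of those 7 genes, against 34.6% of all 35116 promoters of that length. The 250 bases before the start, read 5′ to 3′ on the gene's strand, are shown for MSMO1 (chr4:165327419-165327668, plus strand) and NSDHL (chrX:152830813-152831062, plus strand), which held the most matches, and for CYP51A1 (chr7:92134478-92134727, minus strand), which held none. Capitals mark CCAAT or its reverse complement ATTGG.

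MSMO1: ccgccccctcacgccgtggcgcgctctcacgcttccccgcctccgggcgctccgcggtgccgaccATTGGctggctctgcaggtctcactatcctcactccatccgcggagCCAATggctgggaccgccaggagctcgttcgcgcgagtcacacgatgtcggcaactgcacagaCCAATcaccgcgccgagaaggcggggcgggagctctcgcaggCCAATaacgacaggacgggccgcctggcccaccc

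NSDHL: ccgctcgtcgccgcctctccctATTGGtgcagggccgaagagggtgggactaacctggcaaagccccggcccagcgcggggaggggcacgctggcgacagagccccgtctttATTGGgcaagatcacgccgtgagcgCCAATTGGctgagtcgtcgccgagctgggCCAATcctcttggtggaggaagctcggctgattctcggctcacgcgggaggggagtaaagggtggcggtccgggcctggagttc

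CYP51A1: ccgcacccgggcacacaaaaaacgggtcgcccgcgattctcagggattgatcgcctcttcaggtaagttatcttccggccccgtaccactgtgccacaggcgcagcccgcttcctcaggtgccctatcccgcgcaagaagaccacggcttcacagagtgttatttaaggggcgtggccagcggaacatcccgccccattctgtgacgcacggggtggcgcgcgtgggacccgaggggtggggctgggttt

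MSMO1 holds 4 matches and NSDHL 5, of which 2 overlap in the run CCAATTGG. EBP held 3 matches, DHCR7 2 in 1 of its 2 listed windows, and LSS 1, while the 2 overlapping windows of SC5D shared a match. GGGCGG, the letters of the GC box bound by Sp1, was found for 6 of the 7 genes against 45.0% of all promoters, and the E-box CACGTG for 2 of 7 against 7.26%. The sterol regulatory element form TCACNCCAC was found for 0 of 7 and in 1.13% of all promoters, which says only that these letters are not in these windows. MSMO1 and NSDHL, with many CCAAT matches, and CYP51A1, with none, were all lower with MS8815 in the deposited normalisation, and all higher after the scaling to B-cell genes given below.

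MS8815 was set against DMSO to see how the EZH2 degrader affects these transcripts. In the deposited normalisation all 9 genes were lower with MS8815, from SQLE at 40.7% of its DMSO level to SC5D at 81.3%. After scaling to the B-cell genes SQLE alone was still called lower, FDFT1 did not pass the threshold, and the other 7 were called higher. Limma called 9 of 9 members lower at an adjusted p under 0.05, where 22.4% of all 18744 genes were called lower. In a fit of the upper 50% of genes by level alone, which holds these 9, the share was 42.9%. The 2 groups did not overlap, with MS8815 below DMSO, for 9 of 9 members and 38.5% of all genes. The median log2 fold change was -0.58 over the members and 0.00 over all genes (-0.19 over the upper 50%).

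FDFT1, squalene synthase, which joins farnesyl diphosphate into squalene (GRCh38 chromosome 8, 11795573 to 11839309), had 10596 and 10762 normalised counts in the DMSO libraries and 5424 and 4431 with MS8815. The groups did not overlap, and the MS8815 replicates lay further apart (SD 702.5) than those of any other group. Its log2 fold change was -1.12 ± 0.09 (SE, n = 2 each, limma adjusted p = 0.000205). SQLE, squalene epoxidase, which adds the oxygen that starts ring closure (chromosome 8, 124998497 to 125022283), had 6083 and 6184 with DMSO and 2429 and 2564 with MS8815. This was the largest fall among the 9 genes, -1.30 ± 0.06 (limma adjusted p = 3.14e-05), and 0.704% of the upper 50% of genes had a lower value. Both falls exceeded the mean of the 15 B-cell genes in the same libraries, -1.09 (SD 0.40, range -2.22 to -0.43), which the other 7 members did not. After scaling to those B-cell genes the limma adjusted p was 0.751 for FDFT1, at -0.04, and 0.0154 for SQLE, at -0.21.

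LSS, lanosterol synthase, folds oxidised squalene into the sterol rings (chromosome 21, 46188141 to 46228824). It had 4072 and 4141 normalised counts with DMSO and 3345 and 3049 with MS8815, without overlap and with a log2 fold change of -0.36 ± 0.07 (limma adjusted p = 0.00543). CYP51A1, the cytochrome P450 that removes a methyl group from lanosterol (chromosome 7, 92112151 to 92134803), had 4046 and 4064 with DMSO against 2744 and 3154. Its log2 fold change was -0.46 ± 0.08 (limma adjusted p = 0.00402). MSMO1, a methylsterol oxidase (chromosome 4, 165327623 to 165343160), went from 1698 and 1680 to 1090 and 1192, and NSDHL, the dehydrogenase that works with it to remove methyl groups from the ring (chromosome X, 152830967 to 152869729), from 2703 and 2925 to 1679 and 1598. NSDHL, at -0.78 ± 0.08 (limma adjusted p = 0.000608), fell furthest of the enzymes after squalene epoxidase. MSMO1 was at -0.57 ± 0.08 (limma adjusted p = 0.00258). After scaling to B-cell genes these 4 genes were higher, LSS by 0.73, CYP51A1 by 0.63, MSMO1 by 0.52 and NSDHL by 0.31.

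EBP, the isomerase that shifts a double bond within the sterol ring (chromosome X, 48521158 to 48528716), had 3537 and 3727 normalised counts with DMSO and 2458 and 2388 with MS8815. SC5D, the desaturase that follows it (chromosome 11, 121292453 to 121308694), had 2680 and 2528 with DMSO and 1989 and 2244 with MS8815. DHCR7, the reductase that makes cholesterol in the last step (chromosome 11, 71428193 to 71452868), had 2949 and 3116 with DMSO and 1985 and 2021 with MS8815. In all 3 genes the MS8815 libraries lay below both DMSO libraries. The log2 fold changes were -0.58 ± 0.06 for EBP (limma adjusted p = 0.000763) and -0.60 ± 0.06 for DHCR7 (limma adjusted p = 0.000829). SC5D changed least of the 9, by -0.30 ± 0.08 (limma adjusted p = 0.0258), and 40.3% of the upper 50% of genes had a lower value. Scaled to B-cell genes EBP was at 0.50, DHCR7 at 0.49 and SC5D at 0.79.

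**Figure D1:**
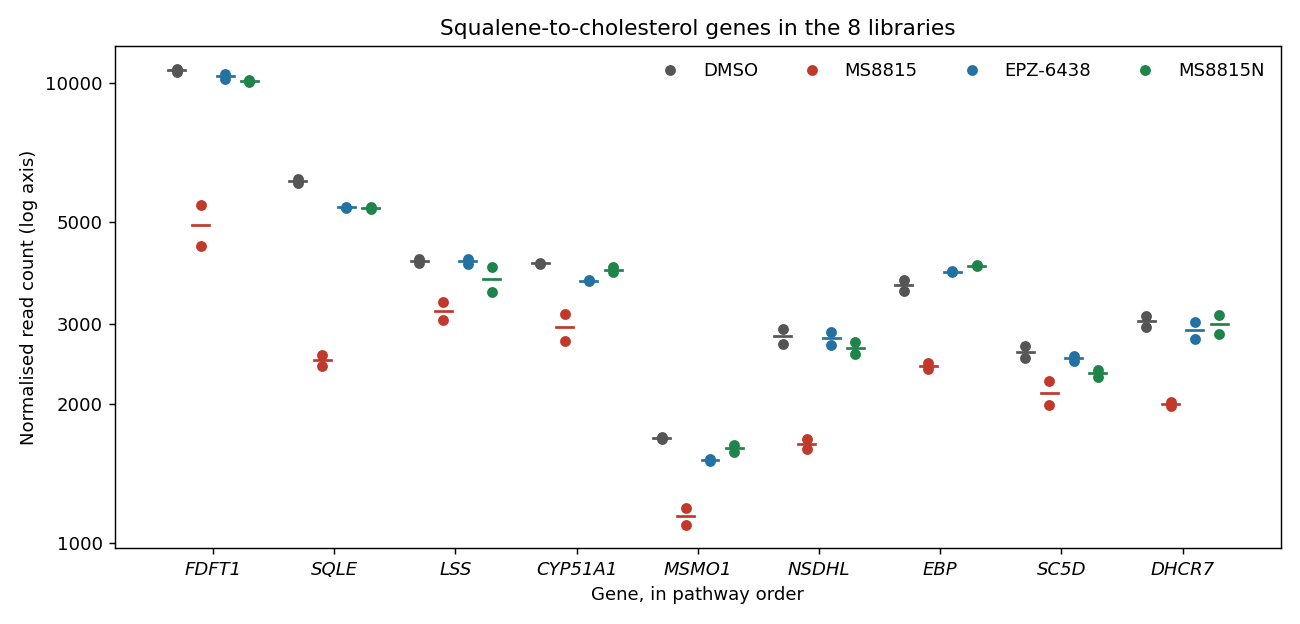
Normalised read counts (log axis, scale of the MS8815N table) of the 9 genes in pathway order, 1 point per library and a bar at the mean of 2. The MS8815 points lie below the DMSO points for all 9 genes, and EBP is the gene whose EPZ-6438 and MS8815N points lie above DMSO.

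The MS8815 calls depend on scaling and on the DMSO libraries. With quantile normalisation 6 of 9 members were called lower (28.9% of all genes), and LSS (adjusted p = 0.136), CYP51A1 (0.0527) and SC5D (0.232) were not. Scaled to B-cell genes 1 was lower (0.507% of all genes) and 7 were higher (77.1% of all genes), with a median of 0.50 over the members and 1.09 over all genes. These limma p-values take the scaling as exact. The members' median was below the all-gene median as deposited and after quantile normalisation, at -0.42 against -0.20 in the latter. Scaling to B-cell genes shifts all genes of a library alike, so it cannot change the gap between the 2 medians. Without either DMSO library LSS, CYP51A1, MSMO1 and SC5D lost their calls, and the calls over all genes fell as well. SC5D also lost its call without MS8815 replicate 1. Such fits leave 1 library in a group. With each library left out in turn, LSS ran from -0.43 to -0.30 and CYP51A1 from -0.56 to -0.36. MSMO1 ran from -0.63 to -0.50, SC5D from -0.39 to -0.21 and SQLE from -1.34 to -1.26.

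**Figure D2:**
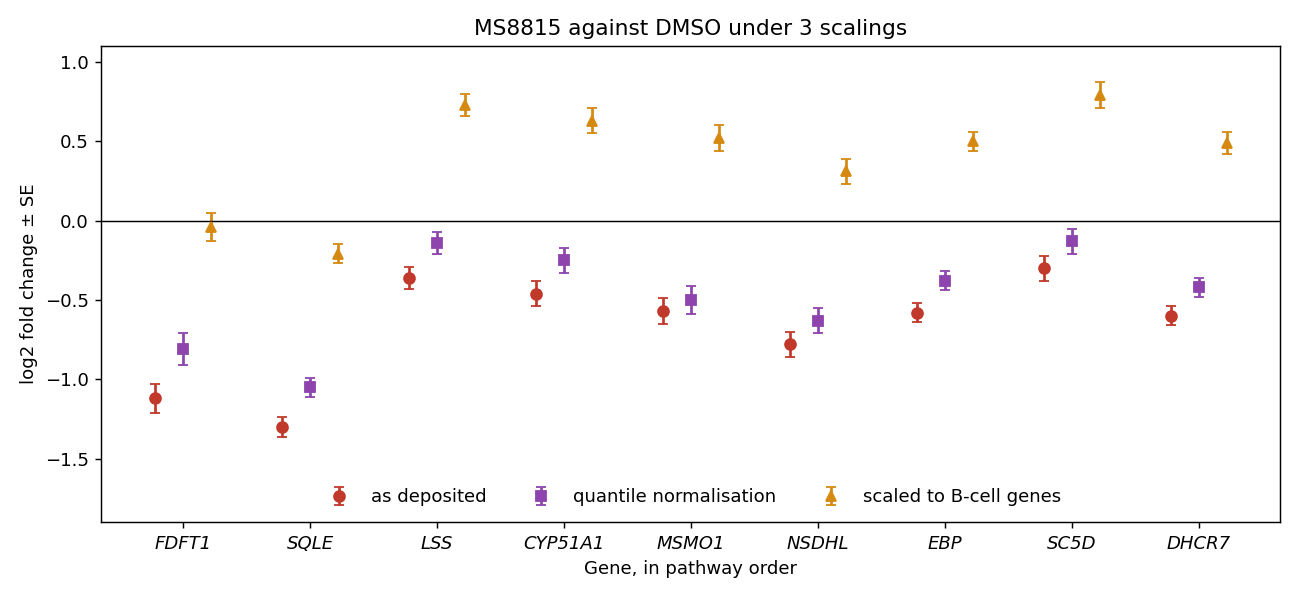
Log2 fold change ± SE of MS8815 against DMSO (n = 2 each) for the 9 genes, with circles for the deposited normalisation, squares for quantile normalisation and triangles for libraries scaled to 15 B-cell genes. SQLE is at -1.30, -1.05 and -0.21, while SC5D is at -0.30, -0.13 and 0.79.

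The balance between the 9 genes was read as a ratio within each library, a measure that no scaling of libraries changes. Each value is the log2 level of a gene minus the mean log2 level of the 9 in the same library. SQLE was at 0.71 in both DMSO libraries, 0.58 and 0.57 with EPZ-6438, 0.54 and 0.62 with MS8815N, and 0.05 and 0.12 with MS8815. FDFT1 was at 1.51 in both DMSO libraries, 1.46 to 1.54 in the EPZ-6438 and MS8815N libraries, and 1.21 and 0.91 with MS8815. These entry enzymes thus made up less of the set in the MS8815 libraries than in any other library. SC5D moved the other way, from -0.47 and -0.58 with DMSO to -0.24 and -0.07 with MS8815, as did LSS, from 0.13 in both to 0.51 and 0.37. CYP51A1 and MSMO1 were also above their values in the other 6 libraries, NSDHL below them, and EBP and DHCR7 within their range. These ratios are given as descriptions, with no test.

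**Figure D3:**
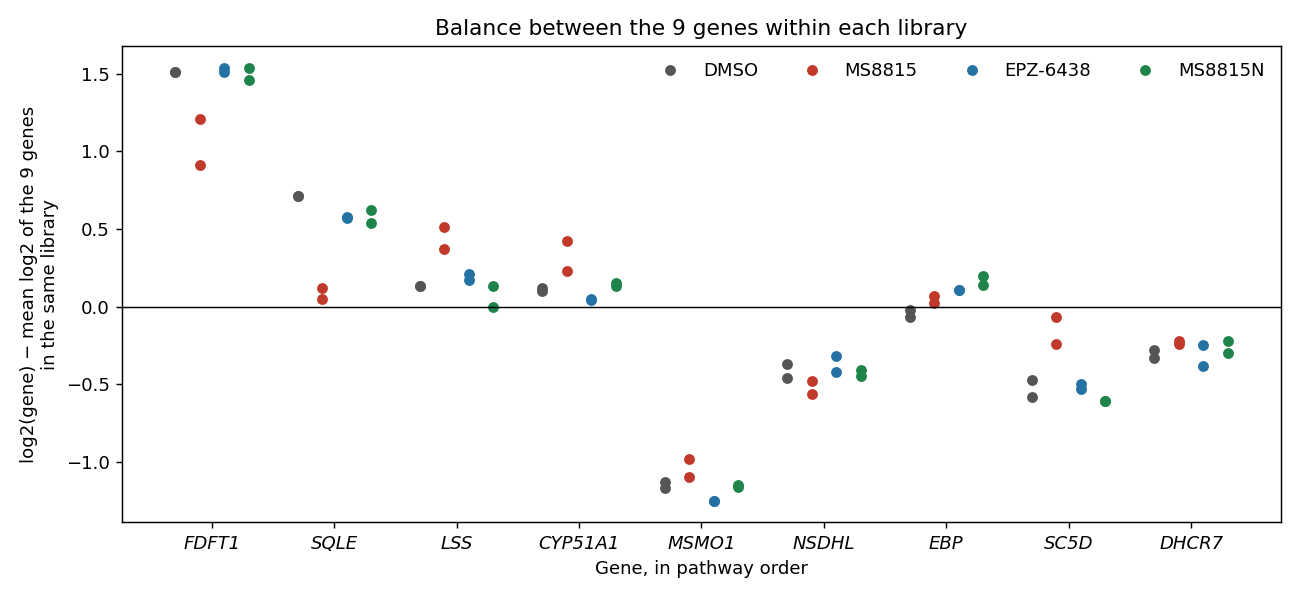
Log2 level of each gene minus the mean log2 level of the 9 genes in the same library, 1 point per library. SQLE and FDFT1 lie lower, and LSS and SC5D higher, in the 2 MS8815 libraries than in the other 6.

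EPZ-6438 was set against DMSO to see how blocking the enzyme, without a degrader, affects the same transcripts. SQLE had 5392 and 5350 normalised counts with EPZ-6438 against 6083 and 6184 with DMSO, 87.6% of the DMSO mean. Its log2 fold change of -0.19 ± 0.03 did not pass the threshold (limma adjusted p = 0.0881). Levels of CYP51A1 were 3715 and 3728 (-0.12 ± 0.04) and of MSMO1 1518 and 1507 (-0.16 ± 0.05), below both DMSO libraries but with limma adjusted p of 0.181 and 0.217. EBP had 3898 and 3889, above both DMSO libraries, at 0.10 ± 0.04 (limma adjusted p = 0.302). FDFT1, with 10231 and 10476, was at -0.04 ± 0.03 and did not overlap DMSO, whereas LSS, NSDHL, SC5D and DHCR7 overlapped it, at -0.07 to 0.00.

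Limma called 0 of 9 members with EPZ-6438, lower or higher, beside 0.0164% of all 18320 genes in each direction. At an unadjusted p under 0.05 there were 3 members (SQLE, CYP51A1 and MSMO1), against 16.8% of all genes. Groups did not overlap for 4 members below DMSO, against 24.8% of all genes, and for 1 above, against 23.7%. The median log2 fold change was -0.05 over the members and 0.01 over all genes. SQLE was called lower in 2 alternatives, at an adjusted p of 0.0434 with the lower 50% of genes removed (2.39% of the genes left were then called lower) and 0.0471 without a trend in the prior variance.

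With MS8815N the comparison shows what the non-PROTAC analog does by itself. SQLE had 5314 and 5376 normalised counts, 87.1% of the DMSO mean, with a log2 fold change of -0.20 ± 0.03 (limma adjusted p = 0.0654). SC5D had 2379 and 2292, below both DMSO libraries, at -0.16 ± 0.05 (limma adjusted p = 0.219), and FDFT1 had 10053 and 10184, at -0.08 ± 0.03 (limma adjusted p = 0.237). In contrast EBP, with 4005 and 4017, lay above both DMSO libraries, at 0.14 ± 0.04 (limma adjusted p = 0.173). LSS differed more between its replicates, with 3991 and 3510, at -0.13 ± 0.06. CYP51A1 (3977 and 3883) and MSMO1 (1635 and 1577) lay below DMSO by less, at -0.05 and -0.07, and NSDHL and DHCR7 overlapped DMSO.

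Limma called 0 of 9 members with MS8815N, beside 0.245% of all 18398 genes called lower and 0.288% called higher. At an unadjusted p under 0.05 there were 4 (SQLE, EBP, FDFT1 and SC5D), against 15.7% of all genes. Groups did not overlap for 6 members below DMSO (24.2% of all genes) and 1 above (23.0%), and the members' median was -0.08 against 0.00 over all genes. SQLE was called lower in 3 alternatives, at an adjusted p of 0.0359 with the lower 50% of genes removed (2.89% of the genes left were then called lower), 0.0366 without trend and 0.0401 with the replicate number as a block.

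**Figure D4:**
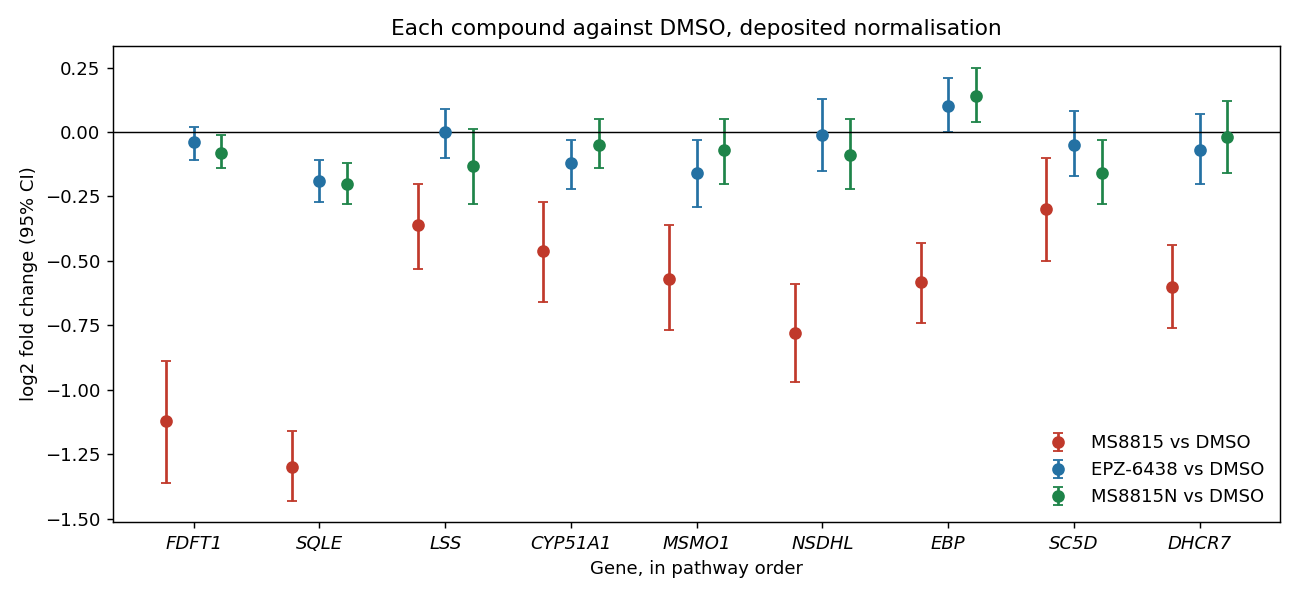
Log2 fold change of each gene against DMSO for the 3 compounds, with 95% confidence intervals from limma (n = 2 per group, DMSO shared). MS8815 values run from -1.30 to -0.30, while EPZ-6438 and MS8815N values run from -0.20 to 0.14.

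Compounds were compared with each other at the matched dose and time, in 3 pairs, in 1 limma fit of all 8 libraries. MS8815 and its analog MS8815N differed in 8 of 9 members, all lower with MS8815 in the deposited normalisation (26.3% of all 17467 genes were called lower). SQLE differed by -1.10 (95% interval -1.19 to -1.01, limma adjusted p = 3.38e-07), FDFT1 by -1.05 (-1.23 to -0.86) and EBP by -0.73 (-0.83 to -0.62). The remaining calls were NSDHL at -0.69, DHCR7 at -0.58, MSMO1 at -0.49, CYP51A1 at -0.42 and LSS at -0.23. SC5D was at -0.14 (-0.30 to 0.01, limma adjusted p = 0.113). EBP, which stood above DMSO with MS8815N and below it with MS8815, followed SQLE and FDFT1 in this comparison.

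MS8815 and EPZ-6438 differed in 9 of 9 members, again all lower with MS8815 (26.3% of all genes were called lower), from SQLE at -1.11 (-1.20 to -1.01) to SC5D at -0.25 (-0.41 to -0.10). Scaled to B-cell genes the order was turned in both comparisons, with 7 members called higher with MS8815 and 0 lower. Of all genes 78.1% and 78.0% were then higher, and 0.853% and 0.87% lower, against MS8815N and EPZ-6438. SQLE was then at -0.05 against MS8815N (adjusted p = 0.345) and -0.02 against EPZ-6438 (adjusted p = 0.732), and FDFT1 at 0.01 in both. With quantile normalisation 7 of 9 were lower against MS8815N (34.2% of all genes), without LSS (adjusted p = 0.415) and SC5D (0.664), and 8 of 9 against EPZ-6438 (34.5%), again without SC5D (adjusted p = 0.114). LSS also lost it without MS8815 replicate 2 (0.0954) or MS8815N replicate 1 (0.168), and SC5D without EPZ-6438 replicate 1 (0.0802) or replicate 2 (0.0503). Without a trend in the prior variance, or with only the 4 libraries of the pair in the fit, LSS missed the threshold against MS8815N (adjusted p = 0.0916 and 0.0915) and SC5D against EPZ-6438 (0.0553 and 0.0547). The 2 comparisons share the MS8815 libraries.

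Between MS8815N and EPZ-6438 limma called 0 of 9 members, with adjusted p of 0.89 or more, beside 0.00573% of all genes called lower and 0.166% called higher. At an unadjusted p under 0.05 there were 0 of 9 members and 6.13% of all genes. For SQLE the difference was -0.01 with an interval of -0.10 to 0.09, and for EBP 0.04 with -0.06 to 0.15. The widest interval was that of FDFT1, -0.21 to 0.15. Its width draws on the spread of all 8 libraries in the fit, including those of MS8815 (SD 702.5), which are not compared here. The FDFT1 replicates lay closer together with EPZ-6438 (SD 173.4) and MS8815N (SD 92.7). LSS had the largest difference, -0.13 (-0.29 to 0.03). These intervals bound each difference but do not show that the 2 compounds act alike.

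Genes around the 9 enzymes were read from 3 lists. Of 9 mevalonate pathway genes, which feed farnesyl diphosphate to FDFT1, limma called 7 lower and 0 higher with MS8815 (median -0.79), where 22.4% of all genes were called lower. After B-cell scaling 2 were lower and 6 higher (median 0.30), where 0.507% of all genes were lower and 77.1% higher. The smallest p-values as deposited were those of IDI1, the isopentenyl diphosphate isomerase, at -1.30 ± 0.06, HMGCS1, HMG-CoA synthase, at -1.52 ± 0.07, and FDPS, farnesyl diphosphate synthase, at -0.80 ± 0.05. After B-cell scaling IDI1 was at -0.22, HMGCS1 at -0.43 and FDPS at 0.29. HMGCS1 was also called lower with MS8815N (-0.31 ± 0.04, limma adjusted p = 0.0236), though not after quantile normalisation (0.0554) or B-cell scaling (0.0583). No gene of this list was called with EPZ-6438. At an unadjusted p under 0.05 there were 2 of 9 with EPZ-6438, against 16.8% of all genes. HMGCS1 and SQLE, upstream and downstream of farnesyl diphosphate, were each the lowest gene of their list with MS8815 as deposited. B-cell scaling shifts all genes of a library alike and cannot change that order.

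Of 7 tested genes for other late sterol enzymes and branches, 5 were called lower and 1 higher with MS8815 (22.4% and 24.5% of all genes). After B-cell scaling 0 were lower and 5 higher (0.507% of all genes were lower and 77.1% higher). TM7SF2, a sterol ring reductase that acts directly after CYP51A1, was at -1.16 ± 0.11, which became -0.07 after B-cell scaling. SOAT1, which esterifies cholesterol for storage, was higher at 0.77 ± 0.07 (1.86 after B-cell scaling). With EPZ-6438 limma called 0 of the 7, and 4 had an unadjusted p under 0.05, against 16.8% of all genes. With MS8815N limma called 1 of the 7 lower (adjusted p = 0.0111), where 0.245% of all genes were called lower. That call stayed after quantile normalisation (limma adjusted p = 0.0238) and B-cell scaling (0.0233).

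Among 13 genes of SREBP control and sterol uptake, 5 were called higher and 3 lower with MS8815, where 24.5% of all genes were called higher and 22.4% lower. After B-cell scaling 13 of 13 were higher and 0 lower (77.1% of all genes were higher and 0.507% lower). With EPZ-6438 and MS8815N limma called none. At an unadjusted p under 0.05 there were 2 and 4 of 13, against 16.8% and 15.7% of all genes. SREBF2 was lower with MS8815 at -0.60 ± 0.05 (0.49 after B-cell scaling), close to the members' median of -0.58. NPC2, a lysosomal cholesterol carrier, was higher at 1.06 ± 0.07 (2.15 after B-cell scaling), in the libraries whose epithelial marker sum was 1656% of DMSO. EZH2 mRNA was at 83.0% of DMSO with MS8815, 101.3% with EPZ-6438 and 98.0% with MS8815N. As deposited its log2 fold change with MS8815 was -0.27 ± 0.06 (limma adjusted p = 0.0123), with -0.04 after quantile normalisation (adjusted p = 0.593) and 0.82 after B-cell scaling. The compounds act on the protein, which was not analysed here.

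The pattern over the 8 libraries most like that of the 9 members was sought among 8081 other genes with a mean of at least 500 normalised counts. Likeness was the root-mean-square difference from the members' median profile, each gene set against its own DMSO mean on the log2 scale. Among the 5 closest were CDC123 (0.012), NUP210 (0.019), and NKRF and RBM38 (0.024 each), with MS8815 values of -0.62 to -0.60. The members' own distances ran from 0.045 for DHCR7 and 0.058 for MSMO1 to 0.275 for FDFT1 and 0.362 for SQLE. The closest genes were picked for the smallest distances among 8081, so a comparison with them cannot show how alike the members are. None of these closest genes belongs to the sterol lists used here.

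Some of these counts carry limits of assignment. CYP51A1 overlaps 3 genes in GENCODE 29, 1 of them antisense and the others protein-coding on its own strand. It also has 3 named pseudogenes. CYP51A1-AS1 reached at most 0.28% and CYP51A1P2 at most 0.281% of the CYP51A1 level in any library. FDFT1, LSS and DHCR7 also overlap non-coding genes on the other strand. Overlap was read from whole gene spans, and shared exons were not examined. The strand setting of the counting is not given in the sources used here, so whether reads of such pairs were told apart is not known. EBP overlaps a small RNA gene on its own strand, and no overlapping gene is annotated for SQLE, MSMO1, NSDHL or SC5D.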

How the data were processed

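RNA was sequenced from 8 SUDHL6 libraries, 2 per group, grouped by the treatment in the labels. The authors deposited 3 tables, each of 2 DMSO and 2 compound libraries, as log2 values from the variance-stabilising transformation of DESeq2, per the file headers and names. STAR 2.4.2, Salmon and GRCh38 are named in the submitters' processing notes, and the annotation, filters and strand setting are not given in the sources used here. Per the labels' protocols, either a TruSeq or a NEBNext kit was used, without saying which for which library.

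Normalised counts were recovered from the deposited values by inverting the transformation, whose floor is the lowest value of each table. The tables share the DMSO libraries, and a constant per gene from those libraries joined them. After a constant per library was also removed, the DMSO values of the tables deviated by at most 7e-11 on the log2 scale over 17219 genes. For 238 genes the constant came from 1 DMSO library, and 10 genes without one were given the median. Compound libraries are each in 1 table, so their values could not be checked this way. Depth was estimated from low values, 38.5% to 65.3% of which were whole multiples of 1 read within 0.02 (4% by chance). It limits precision most in the MS8815 libraries.

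Compounds were compared with DMSO in R 4.3.3 with limma 3.58.1, fitted to the deposited values with a trend in the prior variance, two-sided, with Benjamini-Hochberg adjustment over all genes of a table and a threshold of 0.05. Fold changes and their SE came from limma on log2(count + 1), and pairs of compounds were compared on the joined 8 libraries. The scripts were tested on simulated data. Alternatives were a pseudocount of 0.1, the log2 count scale, removal of the lower 50% of genes, no trend, quantile normalisation, scaling to 15 B-cell genes, the joined fit or only the libraries of a pair, a replicate block, and each library left out. The named genes were the 9 members, at most 3 genes with the smallest p from each other list, EZH2, SREBF2 and the 5 genes most like the members. Some genes that this rule names are not reported here. Members and lists were chosen with earlier results of these data known. Gene positions and transcript lengths came from GENCODE 29 and promoters from RefSeq.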

Additional observations from a re-analysis of the deposited data

How the results depend on the processing

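Of the alternatives to the MS8815 and DMSO comparison, scaling to B-cell genes left 1 of 9 members called lower in place of 9, with LSS at 0.73, CYP51A1 at 0.63, MSMO1 at 0.52, NSDHL at 0.31, EBP at 0.50, SC5D at 0.79 and DHCR7 at 0.49 on the log2 scale. Leaving out each library gave 5 to 9 members. The same scaling left 0 in place of 8 called lower against MS8815N (FDFT1 0.01, LSS 0.82, CYP51A1 0.63, MSMO1 0.56, NSDHL 0.36, EBP 0.32, SC5D 0.91, DHCR7 0.48) and 0 in place of 9 against EPZ-6438 (FDFT1 0.01, LSS 0.73, CYP51A1 0.75, MSMO1 0.68, NSDHL 0.32, EBP 0.40, SC5D 0.84, DHCR7 0.56). It put FDFT1 at 0.00 and SQLE at 0.03 between MS8815N and EPZ-6438, and DHCR7 at 0.01 between MS8815N and DMSO. The 15 B-cell genes themselves varied (SD 0.40), so the size of the shift is uncertain.

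Quantile normalisation turned small values against DMSO, to 0.02 for FDFT1, 0.05 for LSS, 0.04 for NSDHL and 0.00 for SC5D with EPZ-6438, and to 0.01 for CYP51A1 and 0.02 for DHCR7 with MS8815N. With single libraries left out, LSS ran from -0.02 to 0.02 and NSDHL from -0.07 to 0.04 with EPZ-6438, and DHCR7 from -0.09 to 0.04 with MS8815N. Between MS8815N and EPZ-6438 SQLE ran from -0.02 to 0.00 and DHCR7 from -0.02 to 0.11. None of these values had passed the threshold. The cause was not tested.

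Removing the lower 50% of genes, or the trend, raised the count called lower from 0 to 1 (SQLE) with EPZ-6438 and with MS8815N. Over all genes the calls went from 6 to 283 and 169 with EPZ-6438, and from 98 to 389 and 252 with MS8815N. With the replicate number as a block, 1 member in place of 0 was called with MS8815N (353 genes in place of 98), and no other member's call changed. Replicate numbers did not pair the libraries, since the replicate differences of 2 groups correlated at -0.0536 to 0.043 over 12411 genes. For MS8815, leaving out a DMSO library took the calls over all genes from 8782 to 3657 or 3583, and B-cell scaling to 14548, of which 14453 were higher. With MS8815N they fell to 0 to 6 without 1 library, and with EPZ-6438 to 0.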
